A study of Mus musculus with 9 samples.

Results

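mmu-miR-328-3p is the mature miRNA of the Mir328 hairpin, 1 of 817 miRNAs counted by small RNA sequencing in *Meis1/Hoxa9* preleukemic cells. It was chosen from earlier results of the same libraries, by the size of the fall in its uridylated share in the absence of TUT4 and TUT7. That share is therefore described here and not tested. There were 5 control libraries, labelled wild type, and 4 libraries labelled as *Tut4/7* knockouts made with *Vav-iCre*; per the study's methods the mice were C57BL/6. Both groups began as fetal liver cells of E14.5 embryos, enriched for c-Kit and infected with *Meis1* and *Hoxa9* retroviruses. Per the study's methods, such cells were serially replated in MethoCult with stem cell factor, IL-3, IL-6 and granulocyte-macrophage colony-stimulating factor. Liquid culture was in stem cell factor, IL-6 and IL-3. In those methods the controls (*Tut4/7* CTL) carry the same floxed *Tut4* and *Tut7* alleles without *iCre*, and in *Tut4/7* cKO cells both genes are deleted by a Cre active throughout the blood system. The study's methods describe replicates, outside its work on human cell lines, as coming from separate mice or embryos, while the labels do not tie single libraries to an embryo.

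TUT4 and TUT7 are terminal uridylyltransferases, which add uridines to the 3′ ends of mRNAs, miRNA precursors and mature miRNAs without a template. On a mature miRNA such a tail leaves the seed, the bases that find the target, unchanged, while it can alter pairing at the 3′ end and the lifetime of the miRNA. miR-328 has been studied in relation to blast crisis of chronic myeloid leukemia. It has been described as able to act as a decoy that binds the RNA-binding protein hnRNP E2 and frees the mRNA of the myeloid factor CEBPA.

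The mature sequence, as read in the libraries, is shown first with its seed (bases 2 to 8) in capitals, and its locus in GRCm39 with the next 3 genomic bases in capitals. The reads that carry the result follow, with their last base, or the Ts past the mature 3′ end, in capitals.
miR-328-3p: cTGGCCCTctctgcccttccgt
Genome: ctggccctctctgcccttccgtCCC
Ends 1 base short: ctggccctctctgcccttccG
Ends at the mature end: ctggccctctctgcccttccgT
1 added T: ctggccctctctgcccttccgtT
2 added Ts: ctggccctctctgcccttccgtTT
3 added Ts: ctggccctctctgcccttccgtTTT

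The 22 bases had 1 exact match in GRCm39, on the minus strand of chromosome 8 from 106035011 to 106035032. This lies in Mir328 (ENSMUSG00000070130.3, 106034996 to 106035092), on the strand opposite to *Elmo3* and within an intron of that gene, overlapping 0 exons of protein-coding genes. The next genomic bases are Cs, so no T past the mature end can come from this locus. The sequence is rich in C (11 of 22 bases), ends in GT, and was found in 10 distinct read forms, of which 0 were also listed for another miRNA. The hairpin's other arm, miR-328-5p, had 1 read over all 9 libraries against 7357 of miR-328-3p. miR-6395, which shares bases 2 to 8, had 2 reads, of 16 and 17 bases, which fit miR-328-3p equally well.

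Reads had been mapped without mismatches to the mature sequence with 3 Ts added, and a read that ran past the mature 3′ end was marked as uridylated. Such reads are called tailed here. Because the mature sequence itself ends in T, a molecule that ended at the G in position 21 and gained 1 U gives the same read as one cut at the mature end. It is not counted as tailed. The same end with more Us is counted as tailed, with 1 T fewer than it gained. Tails on ends short of this G, and tails of other bases, are not in the counts where they mismatch the mature sequence with its 3 Ts. Where each added base matches it, the read cannot be told from one without a tail.

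The libraries held 175462 to 479342 miRNA reads. The 7 hematopoietic miRNAs taken as markers were all listed, 6 of them with reads in every library, and summed to 41100 to 89230 CPM (counts scaled by library size). Among them miR-181a-5p had the most reads, 9272 to 24387 per library. miR-223-3p had 372 to 3778, miR-155-5p 195 to 3491 and miR-146a-5p 29 to 3399. Counts were low for miR-126a-3p (12 to 109), miR-142a-3p (12 to 55) and miR-142a-5p (0 to 5). The erythroid list summed to 6.26 to 142 CPM, with miR-451a at 0 to 2 reads per library and miR-144-3p not listed. The list of other tissues, of which 5 of 7 miRNAs were listed, summed to 1185 to 2963 CPM. In it, hepatocyte miR-122-5p had 102 to 554 reads, and epithelial miR-200c-3p and miR-203-3p had 51 to 502 and 17 to 87. Neural miR-9-5p and epithelial miR-375-3p had 0 to 2 reads each. Small RNA libraries hold no *Tut4* or *Tut7* transcripts, and the genotypes could not be checked on them. The study shows PCR genotyping of *Meis1/Hoxa9* replicates of both groups for *Vav-iCre* and both deletions. It does not tie those replicates to single libraries. A control library, labelled *Tut4/7* CTL replicate 2, stood apart from its group. Its median tailed share over the 143 miRNAs tested for uridylation was 1.19%, against 5.88 to 7.37% in the other 4 control libraries and 0.189 to 0.248% in the *Tut4/7* cKO libraries, and results are given with and without it.

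Tailed reads of miR-328-3p were present in every *Tut4/7* CTL library and nearly absent from *Tut4/7* cKO libraries. The control libraries held 47 of 280, 15 of 579, 103 of 907, 118 of 570 and 393 of 2427 reads with added T in replicates 1 to 5. These are shares of 16.8, 2.59, 11.4, 20.7 and 16.2%. The lowest was the library labelled replicate 2, whose 95% Wilson interval of 1.58 to 4.23% did not reach that of any other control library, the nearest being 9.45 to 13.6% in replicate 3.

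The *Tut4/7* cKO libraries held 0 of 659, 0 of 798, 1 of 893 and 0 of 244 tailed reads in replicates 1 to 4. The single read, in replicate 3, is a share of 0.112%. Taken as 3 counts over the reads of the library, the counts of 0 allow shares of up to 0.455% (replicate 1), 0.376% (replicate 2) and 1.23% (replicate 4). The upper 95% Wilson limits, as used for the control libraries, are 0.58, 0.48 and 1.55%. The last is just below the lower Wilson limit of 1.58% in the library labelled CTL replicate 2. Every *Tut4/7* cKO library was thus below every control library, and these limits too lie below the lowest control share, with replicate 4, which had the fewest reads, the nearest to it. Intervals and limits cover counting error only, since reads amplified by PCR are not independent molecules.

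The share averaged 13.5% ± 6.96 (SD, n = 5) over the control libraries and 0.028% ± 0.056 (SD, n = 4) over the *Tut4/7* cKO libraries. Without the library labelled CTL replicate 2, the control mean was 16.3% ± 3.83 (SD, n = 4). Pooled over libraries, 676 of 4763 control reads and 1 of 2594 *Tut4/7* cKO reads were tailed, a share 368-fold lower in *Tut4/7* cKO cells with exact 95% limits for counting error of 65.8-fold and 14563-fold. Without the library labelled CTL replicate 2 it was 409.8-fold lower. With the library that held the single read left out (*Tut4/7* cKO replicate 3), the share was at least 80.5-fold lower, against a limit of 3 counts pooled over the other 3 *Tut4/7* cKO libraries.

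**Figure D1:**
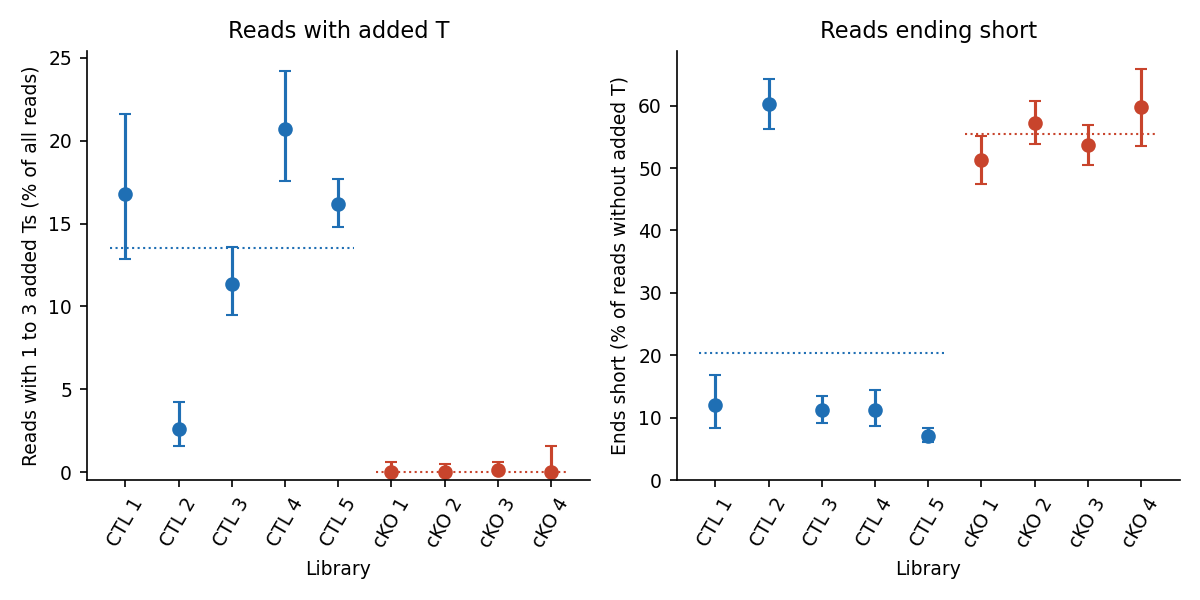
Left, share of miR-328-3p reads with 1 to 3 added Ts; right, share of its reads without added T that end before the mature 3′ end, both in percent per library (points) with 95% Wilson intervals (bars) and the group mean (dotted line), CTL in blue and cKO in red. The 4 cKO libraries lie at 0 to 0.112% on the left and 51.3 to 59.8% on the right, where CTL 2, at 60.3%, is just above them.

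These values fixed the choice of miR-328-3p, so they are set beside those of the other miRNAs only to place them. In edgeR's fit of the odds of a tailed read across 143 miRNAs, its log2 odds ratio was −7.85 (standard error, SE, 0.95), the second lowest after miR-351-5p, against a median of −2.83. The SE, here and below, is approximate: the absolute log2 value divided by the square root of the test's F statistic. Of the 143, 85 (59.4%) were lower in *Tut4/7* cKO cells past the threshold (adjusted *P* of 0.05 in edgeR), and 100 were without the library labelled CTL replicate 2, where the log2 odds ratio of miR-328-3p was −8.31. Entry to the 143 required a tailed read in 3 or more CTL libraries, which favors miRNAs tailed in controls. With entry blind to genotype, 85 of 151 were lower and 0 higher. By mean tailed share in control libraries miR-328-3p ranked 43, where the median was 5.75%. From the lowest, it ranked 28 by mean share in *Tut4/7* cKO libraries, where the median was 0.463%. Of the 42 miRNAs with a higher mean control share, 39 also had a higher mean share than miR-328-3p in *Tut4/7* cKO libraries, and 3 were at 0 there, as the plot of all tested miRNAs shows.

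**Figure D2:**
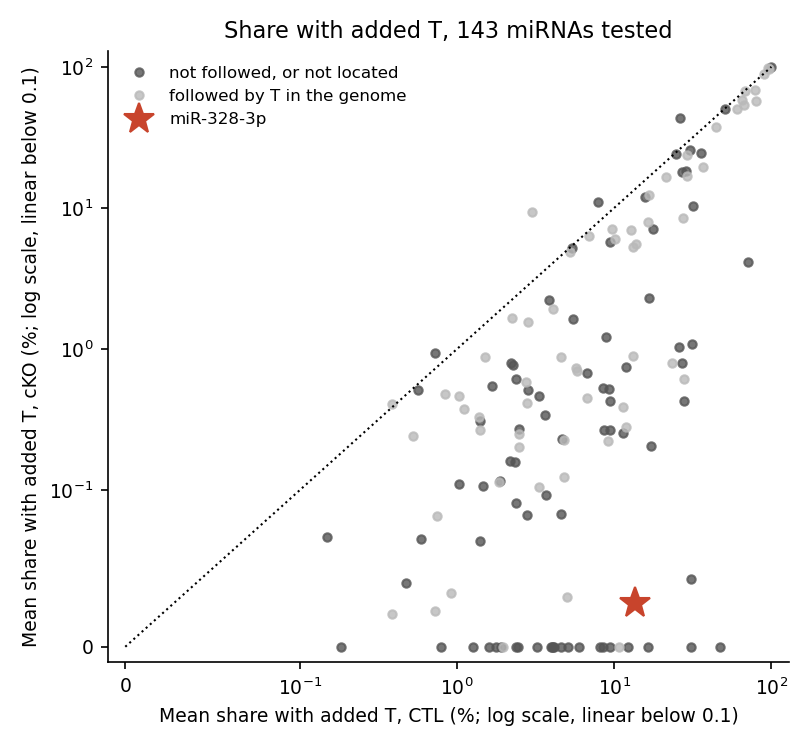
Mean share of tailed reads per miRNA in CTL (horizontal, n = 5) and cKO libraries (vertical, n = 4), in percent on log axes that are linear below 0.1; miRNAs followed by T in the genome are in light grey and the others in dark grey, and the dotted line marks equal shares. miR-328-3p (star, 13.5 and 0.028%) lies far below the line, near the 25 miRNAs whose cKO share was 0.

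Most tails of miR-328-3p, counted past the mature T, were a single T. Of the 676 tailed control reads, 585 (86.5%) had 1, 75 (11.1%) had 2 and 16 (2.37%) had 3 added Ts, and the single *Tut4/7* cKO read had 1. Reads with 2 or 3 added Ts made up 17.0, 6.67, 10.7, 20.3 and 12.0% of tailed reads in control replicates 1 to 5, on 8, 1, 11, 24 and 47 reads. The order of the libraries followed that of the tailed share at both ends, with replicate 4 highest and the library labelled replicate 2 lowest, the latter on 1 read. Without that library the pooled share was 13.6%, against 13.5% with it. Across 48 other miRNAs that are not followed by a genomic T and had at least 20 tailed control reads, the median share with 2 or 3 Ts was 5.93%, with quartiles of 2.25 and 13.2%. The value of miR-328-3p was exceeded by 12 of them. Because the reference ended after 3 Ts, longer tails could not be seen.

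The ends of reads without added T were compared next. In 4 of the 5 control libraries most reads ended at the mature T, and in all *Tut4/7* cKO libraries about as many ended 1 base earlier, at the G. In *Tut4/7* CTL replicates 1, 3, 4 and 5, 19, 67, 43 and 95 reads ended at this G and 205, 714, 401 and 1889 at the mature T. In *Tut4/7* cKO replicates 1 to 4, 269, 372, 389 and 116 reads ended at the G and 321, 341, 413 and 98 at the T. The library labelled CTL replicate 2 had 276 and 224. Its reads were thus divided as in the *Tut4/7* cKO libraries. The ratio of reads ending at the T to reads ending at the G was 9.33 to 19.9 in the 4 control libraries, 0.812 in the library labelled CTL replicate 2 and 0.845 to 1.19 in *Tut4/7* cKO libraries.

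**Figure D3:**
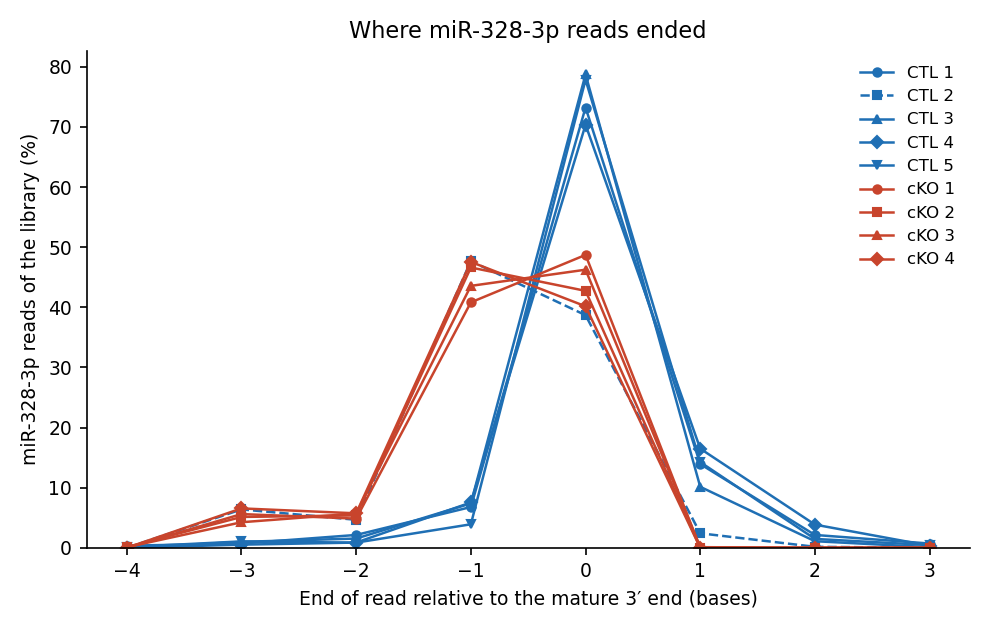
Share of each library's miR-328-3p reads (vertical, percent) by the position of their last base relative to the mature 3′ end (horizontal, bases; 0 is the mature T, positive values are added Ts), 1 line per library, CTL in blue and cKO in red. Between 70.3 and 78.7% of reads end at 0 in CTL 1, 3, 4 and 5, and 40.2 to 48.7% in cKO, where 40.8 to 47.5% end at −1; the dashed line is CTL 2.

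Ends further upstream were divided between the libraries in the same way. Reads ending 3 bases short made up 0.826% ± 0.252 (SD, n = 4) of reads in control libraries without the one labelled replicate 2, 6.39% in that library and 5.39% ± 0.960 (SD, n = 4) in *Tut4/7* cKO libraries. Reads ending 2 bases short made up 1.36% ± 0.612, 4.66% and 5.42% ± 0.410. At both positions the *Tut4/7* cKO libraries lay above those 4 control libraries, and the library labelled CTL replicate 2 was close to or within their range. Reads ending 4 bases short numbered at most 3 in any library, and none ended earlier.

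The share of reads without added T that ended before the mature 3′ end, a measure that leaves out every read marked as uridylated, was 12.0, 60.3, 11.2, 11.3 and 7.13% in control replicates 1 to 5. It was 51.3, 57.3, 53.7 and 59.8% in *Tut4/7* cKO replicates 1 to 4. A molecule that ended at the G and gained 1 U is counted here as ending at the mature T, and with more Us it is left out as tailed. Without those Us it would be counted as short. The share is therefore not independent of the tailing by which this miRNA was chosen. Apart from the library labelled CTL replicate 2, which exceeded every *Tut4/7* cKO library, the groups did not overlap. With all 9 libraries the means were 20.4% ± 22.4 (SD, n = 5) and 55.5% ± 3.78 (SD, n = 4), and the difference did not pass (two-sided exact permutation, *P* = 0.0794, adjusted *P* = 0.159 over 2 tests of read ends). Without that library the control mean was 10.4% ± 2.22 (SD, n = 4) and the difference 45.1 percentage points (*P* = 0.0286 by exact permutation, adjusted *P* = 0.0571). No smaller *P* can be reached with 4 libraries in each group, and after adjustment this difference did not pass either. Beside the other test of read ends (*P* = 0.486 by exact permutation), no difference could have passed here. The adjusted test therefore cannot decide whether the shares differ.

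The same odds were fitted across the 183 miRNAs with at least 10 reads without added T in at least 5 libraries, a fit chosen after these values were seen. For miR-328-3p these odds, too, are not independent of the tailing by which it was chosen. With all 9 libraries the log2 odds ratio of miR-328-3p was 2.83 (SE 0.73 in edgeR, adjusted *P* = 0.0640), and 2 of the 183 (1.09%) were higher in *Tut4/7* cKO cells past the threshold. These 2, named after their values were seen, are miR-365-3p (log2 odds ratio 6.74) and let-7d-3p (6.03), whose mature sequences also end in T. Without the library labelled CTL replicate 2, miR-328-3p passed, with a log2 odds ratio of 3.46 (SE 0.26 in edgeR, adjusted *P* = 9.82e-06), and 7 of the 183 (3.83%) did. That library was set aside after its shares were known. By the difference in mean share, 35.1 percentage points, miR-328-3p ranked 4 of 183. The median difference was 2.85 points over the 66 of these miRNAs that end in T, of which 2 were higher past the threshold, and 0.722 points over the 117 that end in another base, of which 0 were. The difference between these lists was not tested.

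Reads that reach position 21 can also be counted by whether any T follows, whether read as the mature end or as added. A T followed the G in 93.0, 46.4, 92.4, 92.3 and 96.0% of such reads in control replicates 1 to 5 and in 54.4, 47.8, 51.6 and 45.8% in *Tut4/7* cKO replicates 1 to 4. In *Tut4/7* cKO cells and in the library labelled CTL replicate 2, close to 1 read in 2 thus ended at the G. How many reads ending at the T were cut there and how many gained that base as a U cannot be told apart.

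The 5′ start of miR-328-3p reads hardly varied. Of all 7357 reads, 8 began at the second base, 0 to 2 per library, and all others at the first. Such reads averaged 0.130% ± 0.0884 (SD, n = 5) of the control and 0.0693% ± 0.0807 (SD, n = 4) of the *Tut4/7* cKO reads (*P* = 0.333 by two-sided exact permutation, adjusted *P* = 0.333). Without the library labelled CTL replicate 2 the control mean was 0.120% ± 0.0983 (exact permutation test, *P* = 0.486). With counts this small, a difference was not detectable at this depth. Starts upstream of the mature 5′ end could not be mapped and are not in the counts.

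The abundance of miR-328-3p, its reads with and without tails together, spread widely within both groups. Normalized abundance (TMM-scaled CPM) was 1251, 2181, 2667, 1989 and 9120 in control replicates 1 to 5. It was 4500.0, 2168, 2039 and 614 in *Tut4/7* cKO replicates 1 to 4. The ranges overlapped, with CTL replicate 5 above all others and *Tut4/7* cKO replicate 4 below. By read count miR-328-3p ranked 22 to 57 among miRNAs in control libraries and 30 to 72 in *Tut4/7* cKO libraries.

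The means were 3442 ± 3215 CPM (SD, n = 5) and 2330 ± 1609 CPM (SD, n = 4), and the fitted log2 fold change was −0.56 ± 0.67 (standard error; edgeR, adjusted *P* = 0.731), so a change in abundance was not detected. Of 205 miRNAs tested, 1 (0.488%) passed, which was miR-704 (−2.60 on the log2 scale in edgeR, adjusted *P* = 0.0194), named after its value was seen. Without CTL replicate 5 the log2 fold change was 0.11 (adjusted *P* = 0.939, edgeR's test), and without the library labelled CTL replicate 2 it was −0.75 (adjusted *P* = 0.671, edgeR's test). In bulk RNA, fewer cells that carry a miRNA and fewer copies per cell cannot be told apart.

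Divided by read end, tailed reads came to 492 ± 566 CPM (SD, n = 5) in control libraries and to 0.571 ± 1.14 CPM (SD, n = 4) without TUT4/7. Reads ending short came to 479 ± 477 and 1253 ± 801 CPM, and to 278 ± 187 CPM (SD, n = 4) in the control libraries other than the one labelled replicate 2. Reads at the mature end came to 2471 ± 2635 and 1077 ± 811 CPM. Without that library, tailed and mature-end reads came to 600.4 ± 590.1 and 2878 ± 2855 CPM in controls. Replicate 5 had the highest control values for the mature end and for tailed reads, at 7099 and 1477 CPM. These classes were not tested on this scale.

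**Figure D4:**
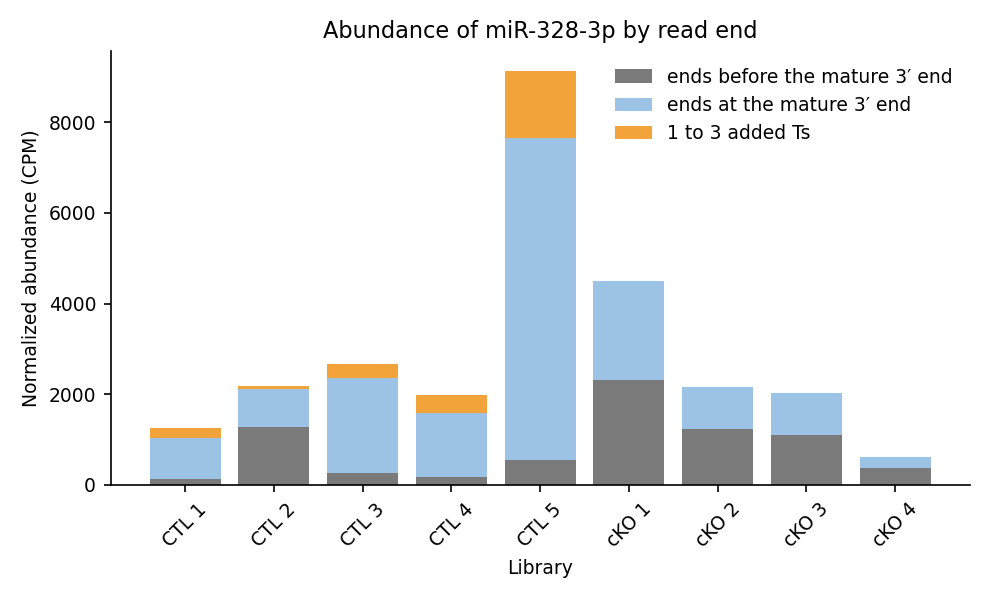
Normalized abundance of miR-328-3p (vertical, CPM) in each library (bars), divided into reads that end before the mature 3′ end (grey), at it (blue) and with 1 to 3 added Ts (orange). Orange is visible in all 5 CTL bars, least in CTL 2, and in none of the cKO bars, where grey takes the larger portion, as it does in CTL 2.

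The miRNAs with the most similar tailing pattern were found by the root mean square difference of log2 odds of a tailed read from those of miR-328-3p over the 9 libraries, with 0.5 added to each count. In order, they were miR-484 (1.02), miR-128-3p (1.04), miR-103-3p (1.26), miR-501-3p (1.48) and miR-351-5p (1.49). Their mature sequences are given with the last 2 bases in capitals, to show their mature ends, of which those of miR-484 and miR-128-3p share the final T of miR-328-3p and none shares its GT.
miR-328-3p: ctggccctctctgcccttccGT
miR-484: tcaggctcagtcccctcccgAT
miR-128-3p: tcacagtgaaccggtctctTT
miR-103-3p: agcagcattgtacagggctatGA
miR-501-3p: aatgcacccgggcaaggattTG
miR-351-5p: tccctgaggagccctttgagccTG

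miR-484 was tailed at 24.9, 2.59, 15.6, 20.7 and 21.9% in control replicates 1 to 5 and at 0.115 to 0.239% in *Tut4/7* cKO libraries, on 5 of 2565 reads. miR-351-5p was tailed at 28.4, 3.29, 33.8, 41.2 and 47.6% and at 0 to 0.173%, on 2 of 2857 reads. miR-128-3p, the 1 of the 5 that is followed by a genomic T, kept 10 tailed of 5471 reads in *Tut4/7* cKO libraries. All 5 had their lowest control share in the library labelled CTL replicate 2, as miR-328-3p did. They were chosen for likeness over all 9 libraries, that one included, so this follows in part from the choice. Their short ends are set beside those of miR-328-3p. The mean share of reads without added T that ended short, in control libraries without the one labelled replicate 2 and in *Tut4/7* cKO libraries, was 27.7 and 32.7% for miR-484, 14.3 and 15.4% for miR-128-3p, 52.8 and 53.3% for miR-103-3p, 16.8 and 16.3% for miR-501-3p and 56.7 and 53.9% for miR-351-5p. For miR-328-3p it was 10.4 and 55.5%, and the difference from these miRNAs was not tested. With the library labelled replicate 2, the control means were 29.5, 15.9, 54.7, 16.5 and 56.5% in the same order, and 20.4% for miR-328-3p.

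**Figure D5:**
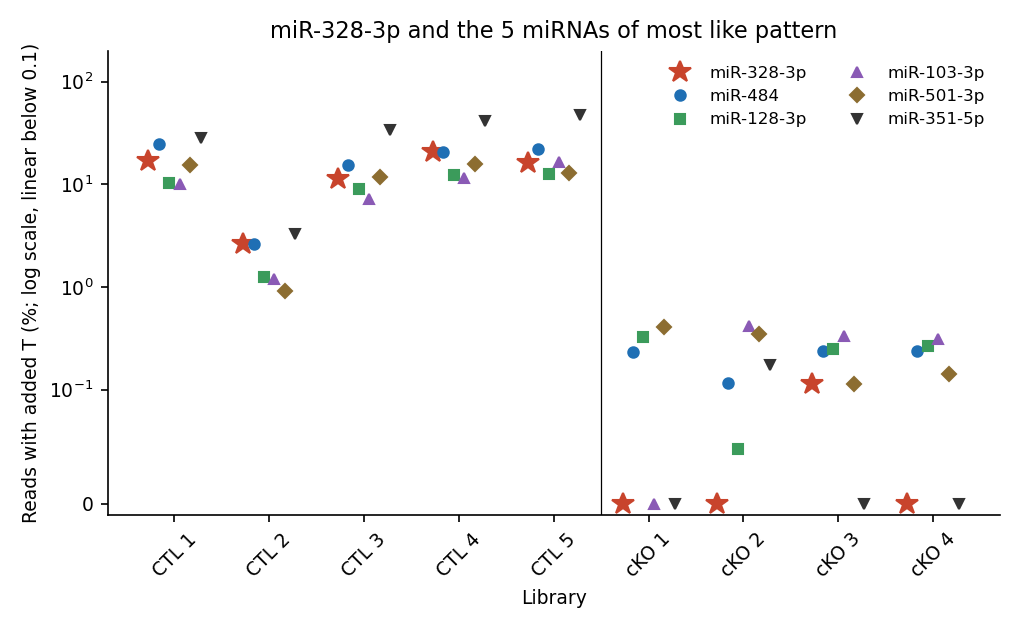
Share of tailed reads (vertical, percent on a log axis that is linear below 0.1) in each library (horizontal) for miR-328-3p (stars) and the 5 miRNAs of most like pattern. For each of the 6 miRNAs CTL 2 is the lowest CTL library, and the cKO points lie between 0 and 0.420%.

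By level rather than tailing, the miRNAs closest to miR-328-3p were miR-351-5p, miR-484 and miR-27a-5p, with root mean square differences of 0.65, 0.69 and 0.80 in log2 normalized CPM over the 9 libraries. In CTL replicate 5, where miR-328-3p reached 9120 CPM, these miRNAs stood at 3408, 3502 and 2999 CPM, each its highest control value. In *Tut4/7* cKO replicate 4, where it was lowest, they were also at their lowest in that group, at 830, 1051 and 1132 CPM. These miRNAs were chosen for closeness in level over the same libraries, so the shared high and low libraries follow in part from the choice.

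The other miRNAs with the mature end GT were listed by their tailing. Of 24 other tested miRNAs that end in GT, 11 (45.8%) were lower in *Tut4/7* cKO cells past the threshold, with a median log2 odds ratio of −1.25, beside 59.4% and −2.83 over all 143. Many of them are followed by T in the genome, where a read with 1 T past the mature end can be templated. Of the 11 that are not, 7 (63.6%) were lower, with a median of −3.90, beside 55 of 81 (67.9%) and −3.42 over all tested miRNAs located and not followed by T. Of the 3 with the most reads, miR-423-3p fell (log2 odds ratio −4.88, SE 0.66 in edgeR, adjusted *P* = 2.91e-05), as did miR-181a-5p, which is followed by a genomic T (−1.21, standard error 0.43, adjusted *P* = 0.0258), while miR-148a-3p, at −1.04, did not pass (adjusted *P* = 0.0868).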

How the data were processed

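sRNA-seq libraries of *Meis1/Hoxa9* preleukemic cells (5 *Tut4/7* CTL, 4 *Tut4/7* cKO) were prepared with the NEBNext small RNA kit. The authors trimmed adapters with cutadapt 5.0, mapped reads with Bowtie 1.3.1 without mismatches to mature miRBase sequences with 3 Ts at the 3′ end, and deposited read counts, not normalized, by miRNA and by read sequence. The submitters' processing notes name these versions and DESeq2 1.42.1; the miRBase release is not given in the sources used here. The mark of uridylation equaled the end position in all 14803 read sequences.

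Abundance (205 miRNAs, minimum 10 reads in 4 or more libraries) and the odds of tailed reads (143, minimum 10 reads in 5 or more, with a tailed read in 3 or more CTL libraries) were fitted across all miRNAs in edgeR 4.0.16 (R 4.3.3, glmQLFit, glmQLFTest, Benjamini-Hochberg, threshold 0.05). Abundance was scaled by TMM, and the odds had a term per library without TMM. The test gives no standard error, so SE was computed from the log2 value and the F statistic. Library shares were compared with exact permutation tests in SciPy 1.17.1. The fits were run on simulated data first, with 40 changed miRNAs each. They recovered 40 for abundance (1 false call), 36 for uridylation (3 false calls) and 37 for short ends (1 false call). The simulated odds held counting error only, without the spread seen between libraries, so they do not show how the odds fits behave here. The simulated abundance had a set spread between libraries and a set size of change, the same for all miRNAs and not taken from these data. Its recovery thus does not show what the abundance fit can detect here either. Mature sequences were located in GRCm39 and GENCODE miRNA genes (142 of the 143, of which 61 are followed by T). Members, lists and named miRNAs were chosen with earlier results of these data known; the named ones were miR-328-3p, its other arm, miRNAs sharing its seed, miR-351-5p and miR-484 as those of most like fall in earlier results, those of most like pattern (5) and level (3), and the 3 most abundant with the same last bases. Alternatives were other size factors, DESeq2 1.42.0, other minimums, other read classes, a replicate block and leaving out each library.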

Additional observations from a re-analysis of the deposited data

Results flagged for a closer look

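3 values of miR-328-3p lay outside the spread of their group by Dixon's criterion, which chance passes in about 1 of 20 groups; 8 groups of values were examined. Normalized abundance in CTL replicate 5 was 9120 CPM, and the next highest control library was at 2667. The share of reads without added T that ended short was 60.3% in the library labelled CTL replicate 2, and the next highest control library was at 12.0%. The tailed share in *Tut4/7* cKO replicate 3 was 0.112%, on 1 read, and the other 3 *Tut4/7* cKO libraries were at 0. With 3 libraries at 0 any single read meets the criterion, so this value is a description, and the rate of 1 in 20 does not apply to it.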

How the results depend on the processing

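The fall in the tailed share of miR-328-3p (13.5 percentage points) kept its direction in all 12 alternatives run. miR-328-3p was chosen for this fall, and every *Tut4/7* cKO library lay below every control library. Leaving out a library therefore could not reverse it, and the count of alternatives is a description only. Its log2 fold change in abundance passed in no alternative and ranged from −1.10 to 0.11 with 1 library left out, reversing only without CTL replicate 5. Same-numbered libraries did not deviate together in all 4 pairs (correlations −0.20 to 0.43), so the numbers were not taken as pairs. With a replicate block, abundance was −0.08 (adjusted *P* = 0.983, edgeR's test), the difference in short ends 31.8 percentage points (exact permutation within pairs, *P* = 0.25, where the smallest possible is 0.125), and 73 miRNAs were less tailed, against 85 without it. The odds of short ends passed in 1 alternative, without the library labelled CTL replicate 2 (log2 odds ratio 3.46, added after seeing the data), and the count of miRNAs that passed there, 2, rose to 7 without that library and to 4 without cKO replicate 2. The number of miRNAs with changed abundance, 1 of 205 by edgeR, was 11 with DESeq2 and 18 of 817 without a filter on low counts. It was 0 with at least 50 reads and 0 with a replicate block, and with 1 library left out ranged from 0 (without CTL replicate 3 or any 1 cKO library) to 2 (without CTL replicate 2). Where edgeR called 0, 18 to 53 miRNAs had an unadjusted *P* under 0.05. The cause was not tested. Depth limits the *Tut4/7* cKO shares most in replicate 4, with 244 reads.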

Other observations

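The 2 miRNAs whose reads without added T ended short more often in *Tut4/7* cKO cells past the threshold, named after their values were seen, had larger differences than miR-328-3p. For let-7d-3p, the passenger arm of let-7d, the share ending short was 31.6, 86.3, 22.3, 29.4 and 20.8% in control replicates 1 to 5 and 96.9 to 97.6% in *Tut4/7* cKO libraries. For miR-365-3p it was 40.0, 100, 40.4, 33.3 and 37.5%, and 96.3 to 100%, on few reads: 5, 3, 47, 48 and 24 reads without added T in the control libraries and 9 to 145 in the *Tut4/7* cKO libraries. For let-7d-3p, with 592 such reads in the library labelled CTL replicate 2, that library lay far from the other 4 control libraries and nearer to the *Tut4/7* cKO libraries, while the 3 reads of miR-365-3p there are too few to place it. miR-326-3p, which ends in GT like miR-328-3p, did not pass (log2 odds ratio 2.84, adjusted *P* = 0.0640, edgeR's test), with 43.1, 77.8, 28.9, 33.3 and 48.5% in control replicates and 66.7 to 100% in *Tut4/7* cKO libraries, on 6 to 51 reads per library. miR-182-5p, which ends in CG, had the same adjusted *P* (log2 odds ratio 1.40, adjusted *P* = 0.0640, edgeR's test), with 72.7, 56.6, 59.8, 59.4 and 55.6% in control replicates, where the library labelled CTL replicate 2 lay within the range of the others, and 71.9 to 91.7% in *Tut4/7* cKO libraries.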
